A study of Mus musculus with 57 samples.

Results

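Lineage-negative marrow of mice that carry the NHD13 transgene was compared with unfractionated marrow of mice of the same genotype. The members were the 3 arrays titled as lineage-negative (LN) marrow and the 3 arrays titled as whole bone marrow (WBM) of clinically healthy NHD13 animals, 6 of the 57 arrays in the series. The labelled genotype is vav-NUP98-HOXD13, and both groups carry it. In this construct the vav promoter, which is active in blood cells, drives a fusion of the nucleoporin NUP98 to the homeobox protein HOXD13. Clinically healthy means that the animals showed no evident sign of leukemia, and no mouse received a treatment. Wild-type marrow, taken from age-matched littermates where possible, gave the reference for the same comparison, with 3 LN arrays and 6 WBM arrays. Another 3 wild-type WBM arrays labelled C57B6 were used only as an alternative. The labels used here give neither the antibodies of the lineage depletion nor the age or the identity of the animals, so that p-values measure the spread between arrays, which may in part be technical.

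Lineage depletion removes cells that carry the surface antigens of mature granulocytes, monocytes, lymphocytes and red cells, and leaves stem cells and early progenitors. Granulocyte precursors first make the proteins of primary granules, such as myeloperoxidase and the neutrophil serine proteases, and later those of secondary and tertiary granules, such as lactoferrin. Erythroid precursors pass from a stage led by GATA1 and KLF1 to a stage with heme synthesis and globin. NUP98-HOXD13 is known for holding HOXA genes on in blood progenitors and for a myelodysplastic disease in these mice.

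All values below are log2 signals of 1 probe set per gene, and differences are LN minus WBM, so that 1 unit is a change by a factor of 2. A gene was called when its Benjamini-Hochberg adjusted p in limma was under 0.05. In bulk RNA, fewer cells of a type and less RNA per cell cannot be told apart.

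LN array 3 stood apart from the other 5. Its Gapdh probes read 2.95 higher at the 3′ end than at the 5′ end, a sign of degraded RNA, against -0.03 to 0.27 on the other arrays. It belonged to a set of 10 arrays of the series with a narrow spread of values, as did WT LN array 3 and WT WBM arrays 4 to 6, and it correlated at 0.754 and 0.749 with LN arrays 1 and 2, which correlated at 0.965 with each other. The median SD per gene was 0.61 over the LN arrays, 0.16 over the WBM arrays and 0.28 over the wild-type LN arrays. Counts of calls are therefore given with and without LN array 3. The SEs and p-values use the spread pooled over the 7 marrow groups, so they do not measure that of the NHD13 LN arrays alone. WBM array 3 came from a female mouse by Xist (11.06 against 5.36 to 6.01 on the other 5), and the other 5 arrays from males by Eif2s3y (6.66 to 8.63 against 3.03). By the same genes, WT LN array 1 and WT WBM arrays 1 to 3 came from males. WT LN arrays 2 and 3 and WT WBM arrays 4 to 6 came from females.

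Among 15310 genes tested, 2928 were called, which is 19.1% of them. Of these, 861 were higher in LN (5.62%) and 2067 were lower (13.5%), and the median difference over all genes was 0.07. The arrays of the 2 groups did not overlap for 5708 genes, or 37.3%. Genes both called and without overlap numbered 811 higher (5.3%) and 1883 lower (12.3%). Without LN array 3, 3013 genes were called (19.7%), 1307 higher (8.54%) and 1706 lower (11.1%), with a median of 0.15. A total of 1995 genes were called both ways, each in the same direction, whereas 933 were called only with LN array 3 and 1018 only without it. The share of calls that were higher moved from 29.4% to 53.7% when the arrays were quantile-normalized, and calls that were higher numbered from 326 (without WBM array 2) to 1591 (without LN array 2) when 1 array was left out. They numbered 362 without WBM array 1 and 453 without WBM array 3. In the fit of the 6 NHD13 arrays alone 937 genes were called, 47 higher and 890 lower, so most rises were called only with the spread shared over the other marrow groups.

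Of 6 antigens at which lineage depletion is commonly aimed, 2 were lower in LN and 4 were not called. Itgam, the CD11b chain of myeloid cells, read 4.19, 3.67 and 4.54 in LN and 9.61, 9.59 and 9.79 in WBM. These groups were far apart, with a difference of -5.53 ± 0.48 (SE, adjusted p = 6.9e-09). Ptprc, which encodes CD45 and its B220 form, read 8.8, 9.23 and 6.12 against 12.04, 11.85 and 12.21, a fall of 3.98 ± 0.48 with the lowest value on LN array 3. Cd3e, Cd4, Cd8a and Cd5 lay between 4.42 and 7.84 on all 6 arrays, overlapped between the groups and were not called. The median over the 6 was -0.12.

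Late neutrophil granule genes had the lowest median of the lists counted. All 18 tested fell, with a median of -6.04, and 18 also fell without LN array 3 (median -5.92) and in each of the other fits in which the lists were recounted (left-out arrays, quantile normalization, sex as a covariate, the compared groups alone and the replicate block) (medians -6.65 to -5.66). Ltf, which encodes lactoferrin, read 8.11, 4.87 and 6.29 in LN against 13.37, 13.42 and 13.26 in WBM. Camp, the cathelicidin precursor, read 8.82, 6.08 and 7.65 against 13.6, 13.78 and 13.55. Lcn2, the siderophore-binding lipocalin, read 7.5, 4.19 and 4.61 against 12.67, 12.69 and 12.96. In each of these genes LN array 1 was the highest of the LN arrays, and every WBM array lay above every LN array. Lcn2 fell by 7.34 ± 0.69 (adjusted p = 3.14e-08). Its values on LN arrays 2 and 3 lay below the medians of those arrays (5.48 and 5.85), a range in which the array does not resolve levels, so the sizes and the order of the largest falls are limited by the background. Ifitm6 read 5.69, 5.21 and 5.35 against 12.41, 12.67 and 12.6 and fell by 7.14 ± 0.36, with a much smaller spread among the LN arrays. S100a8 and S100a9, the calprotectin subunits, fell by 5.43 and 5.98. They stayed at 10.55 and 10.04 on LN array 1 while LN arrays 2 and 3 read 7.12 to 7.74.

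The other genes among the 15 largest falls were Chil3, Mgst1, Cd177, Lgals3, Slfn4, Pglyrp1, Olfm4, Wfdc21, Stfa2l1, S100a6 and Lyz2, with differences from -7.19 to -6.09 beside those of Lcn2, Ifitm6, Ltf and Camp. Olfm4, a neutrophil granule protein, read 3.45, 3.21 and 4.05 against 9.72, 9.72 and 10.36. Lyz2, the lysozyme of granulocytes and macrophages, read 8.61, 7.06 and 6.81 against 13.58, 13.49 and 13.67. Mgst1 has another probe set, which did not follow (0.27 against -7.13). All 3 stefins tested, which are cysteine protease inhibitors, fell. Stfa3 read 7.27, 4.35 and 4.61 against 9.2, 12.3 and 11.34, so its values were spread in both groups.

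**Figure D1:**
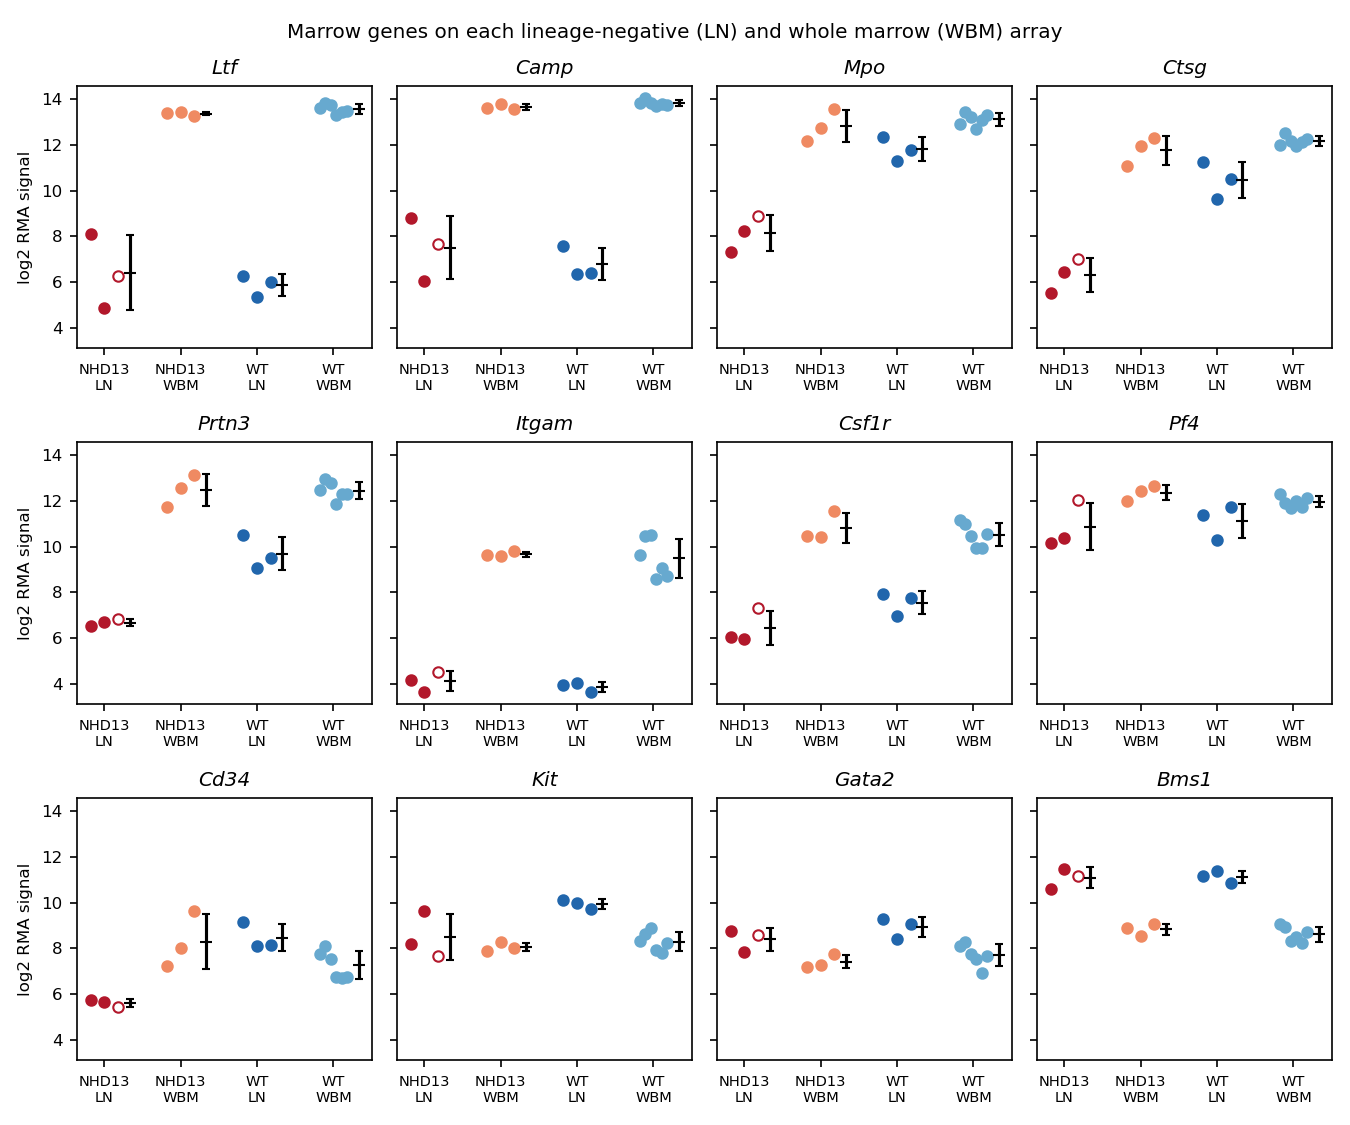
Log2 RMA signal (y axis) of 12 genes on each array of NHD13 LN, NHD13 WBM, wild-type LN and wild-type WBM marrow, with the mean and SD of each group in black; the open circle is NHD13 LN array 3. Ltf and Camp are low in LN marrow of both genotypes, whereas Mpo, Ctsg and Prtn3 lie between 5.52 and 8.89 in NHD13 LN marrow and at means of 11.81, 10.46 and 9.69 in wild-type LN marrow.

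Primary granule genes, which mark promyelocytes and earlier granulocyte progenitors, fell as well. Of 9 tested, 8 fell and Clec11a was not called, with a median of -4.65 (-4.76 without LN array 3). Mpo, myeloperoxidase, read 7.34, 8.26 and 8.89 in LN against 12.15, 12.74 and 13.54 in WBM, a difference of -4.65 ± 0.35. Ctsg, cathepsin G, read 5.52, 6.45 and 7.01 against 11.07, 11.93 and 12.29, a difference of -5.43 ± 0.37. Prtn3, proteinase 3, read 6.54, 6.7 and 6.83 against 11.72, 12.56 and 13.12, a difference of -5.78 ± 0.35. Elane, neutrophil elastase, read 6.45, 6.24 and 6.4 against 11.79, 12.58 and 12.76, a difference of -6.02 ± 0.3 (adjusted p = 5.59e-12). The LN arrays lay close together for Prtn3 and Elane, and no array of one group reached the other.

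The promoters of these 4 genes are shown because the genes fell together. Each run is the 250 bases before the RefSeq start in GRCm38.p6, 5′ to 3′ on the strand of the gene, and capitals mark GAGGAA, the core that PU.1 and related ETS factors bind. Mpo lies on the plus strand (chr11:87793534-87793783), Ctsg on the minus strand (chr14:56102575-56102824), and Prtn3 (chr10:79879417-79879666) and Elane (chr10:79886062-79886311) lie close to each other on the plus strand.
Mpo: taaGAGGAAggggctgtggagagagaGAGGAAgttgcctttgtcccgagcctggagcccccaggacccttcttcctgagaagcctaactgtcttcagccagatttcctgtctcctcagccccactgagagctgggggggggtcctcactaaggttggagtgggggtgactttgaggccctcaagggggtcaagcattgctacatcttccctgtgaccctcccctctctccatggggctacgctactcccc
Ctsg: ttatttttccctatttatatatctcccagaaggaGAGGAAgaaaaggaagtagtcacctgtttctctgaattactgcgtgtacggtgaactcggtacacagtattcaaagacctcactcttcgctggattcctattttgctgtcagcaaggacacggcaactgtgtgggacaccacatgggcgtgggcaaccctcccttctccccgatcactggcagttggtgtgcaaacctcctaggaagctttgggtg
Prtn3: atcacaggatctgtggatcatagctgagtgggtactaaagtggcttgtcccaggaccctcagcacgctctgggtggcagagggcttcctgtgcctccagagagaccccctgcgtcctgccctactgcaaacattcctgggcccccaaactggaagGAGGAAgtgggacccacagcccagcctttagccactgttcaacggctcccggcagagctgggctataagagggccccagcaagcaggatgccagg
Elane: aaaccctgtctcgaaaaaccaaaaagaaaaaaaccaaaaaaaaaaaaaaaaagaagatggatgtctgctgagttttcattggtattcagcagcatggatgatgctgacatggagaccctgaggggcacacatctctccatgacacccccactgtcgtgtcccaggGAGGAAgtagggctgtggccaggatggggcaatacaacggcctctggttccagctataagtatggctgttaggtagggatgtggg
With both strands searched, GAGGAA occurred 2 times in the Mpo window and 1 time in each of the others. It was present in 6 of the 8 primary granule promoters that RefSeq gave and in 8 of 15 late granule promoters. Among erythroid membrane promoters 4 of 10 held it, and among heme synthesis promoters 4 of 10, so the letters were not particular to granule genes. Over all 32851 promoters of the table the share was 23.3%. The C/EBP letters TTGCNNAA occurred in 1 of the 8 and 5 of the 15, against 9.6% of all promoters, and in none of the 4 printed windows. These are matches of letters only.

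Genes of later neutrophil receptors and of monocytes fell along with the granule genes. Of 22 neutrophil receptor and signal genes, 19 fell (median -2.99), among them Fpr2, a formyl peptide receptor (-5.97), Fcgr3 (-4.85) and Cxcr2, the receptor for neutrophil chemokines (-3.89). All 18 monocyte and macrophage genes fell (median -3.54), and all 18 did so without LN array 3, although the count ranged from 13 to 18 over the fits recounted. Csf1r, the receptor for macrophage colony-stimulating factor, read 6.07, 5.98 and 7.32 against 10.45, 10.4 and 11.56. F13a1 fell by 5.92 and Cybb, the NADPH oxidase subunit, by 5.85. Of 15 marrow macrophage genes, 11 fell (median -1.65), led by Vcam1 (4.33, 4.28 and 4.18 against 9.6, 10.67 and 8.87) and the complement genes C1qa, C1qb and C1qc (-3.75, -3.72 and -2.98).

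Transcription factors of myeloid cells were lower as well. Of 12 tested, 9 fell, with a median of -2.77. Irf8, which directs monocytes and dendritic cells, read 5.58, 5.88 and 5.84 against 10.51, 9.82 and 10.54. Cebpd fell by 5.06, Gfi1 by 3.92, Cebpb by 3.16, Cebpa by 2.68 and Spi1, the gene of PU.1, by 2.07. Runx1, Egr2 and Rara were not called. Of 14 cytokine receptor genes, 9 fell (median -2.3), and these included both common beta chains of the IL-3 and GM-CSF receptors (Csf2rb -5.24, Csf2rb2 -2.28), Csf2ra (-4.2), Csf3r (-3.6), Il6st, the gp130 chain (-4.14), and Il7r (-2.45). Epor, Kit, Flt3, Il3ra and Ifngr1 were not called.

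The genes of stem cells and early progenitors did not rise as a group. Of 24 tested, 1 rose, 6 fell and 17 were not called, and the median was -0.38 with and without LN array 3. Over all genes 5.62% were called higher and 13.5% lower, so the share that rose was near that of all genes. Gata2, a regulator of stem and early progenitor cells, read 8.78, 7.84 and 8.58 against 7.21, 7.3 and 7.75. These groups did not overlap, and it rose by 0.98 ± 0.33 (adjusted p = 0.0385), but without LN array 3 it was not called (0.89). No gene of the list was called higher without LN array 1, WBM array 1 or WBM array 2. Mycn was not called with all arrays but was called without LN array 3 (1.26). Kit, the stem cell factor receptor, read 8.19, 9.64 and 7.69 against 7.9, 8.26 and 8, overlapped and was not called. Cd34 read 5.75, 5.68 and 5.44 against 7.25, 8.02 and 9.61. It fell by 2.67 ± 0.45 (adjusted p = 0.000127), with a narrow range among the LN arrays and a wide one among the WBM arrays. The LN values of Cd34 lay near the medians of those arrays (5.52, 5.48 and 5.85), so the size of its fall is limited by the background. Prom1 (-4.06), Cd93 (-2.44), Slamf1 (-1.81), Sox4 (-2.81) and Erg (-1.61) also fell. Prom1 read 4.06, 4.61 and 5.21 against 8.65, 8.85 and 8.55. Tal1, Lmo2 and Myb, regulators shared by progenitors and erythroid cells, lay between 9.85 and 11.78 on all 6 arrays and were not called. The low mature myeloid RNA on the LN arrays went with their label of lineage-negative marrow, whereas Kit was not called higher and Cd34 was lower.

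**Figure D2:**
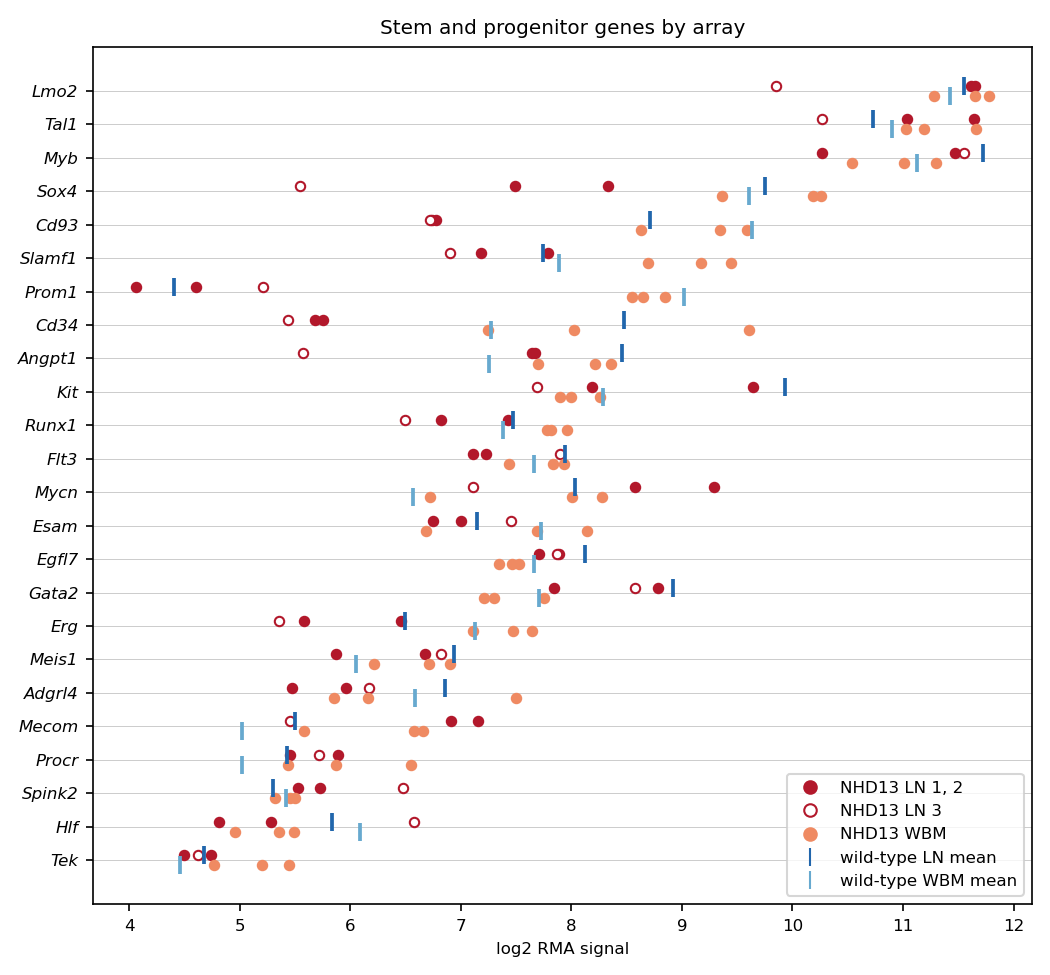
Log2 RMA signal (x axis) of the 24 stem and progenitor genes tested (y axis), with 1 point per NHD13 array, open for LN array 3, and bars at the wild-type group means. Cd34 lies between 5.44 and 5.75 on the NHD13 LN arrays and between 7.25 and 9.61 on the WBM arrays, and Gata2 is higher on every LN array than on any WBM array.

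Erythroid genes were examined by stage. Klf1, which drives erythroid genes, read 12.89, 12.78 and 11.04 against 12.66, 12.54 and 11.96, and Gata1 read 11.04, 10.86 and 9.06 against 10.75, 10.43 and 10. In both genes LN array 3 was the lowest of all 6 arrays while LN arrays 1 and 2 lay above every WBM array, and neither was called. Of 16 erythroid regulators, 2 rose and 2 fell with all arrays (median -0.11), against 5.62% of all genes called higher and 13.5% lower. Without LN array 3, 7 rose and none fell (median 0.5), against 8.54% and 11.1% of all genes. Leaving out any of the other 5 arrays left 1 of the 16 higher, and in the fit of the 6 NHD13 arrays alone none was called. Bcl11a, the repressor of fetal globin, read 9.55, 10.44 and 9.53 against 8.66, 8.34 and 7.55 and rose either way (1.66 and 1.81). Its other probe sets gave -0.12 to 1.13 with all arrays. Zbtb7a also rose either way (0.79 and 1.03). Cited4 (2.18), Zfpm1, the partner of GATA1 (1.33), Car1 (1.3), Ldb1 (1.22) and Gfi1b (1.09) rose only without LN array 3. Nfe2 and E2f2, which are called lower with all arrays (-1.48 and -1.98), were not called without it.

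Late erythroid genes varied widely among the LN arrays. Alas2, the first enzyme of erythroid heme synthesis, read 13.02, 8.46 and 6.57 in LN against 13.23, 13.28 and 12.64 in WBM. Hbb-b2, an adult beta globin, read 12.69, 7.06 and 5.63 against 12.22, 12.11 and 11.83. Slc4a1, the band 3 anion exchanger, read 13.39, 10.1 and 6.98 against 13.39, 13.09 and 12.72. LN array 1 reached the level of whole marrow for these genes, LN array 2 did not, and LN array 3 was the lowest. Among the genes of globins and late erythroid cells 7 of 12 fell (median -2.12), in heme synthesis 4 of 12 (median -0.92) and in the erythroid membrane 3 of 15 (median -1.16). Without LN array 3 the counts were 2 of 12 (Xpo7 and Bpgm), 1 of 12 (Alas2) and 0 of 15. In that fit Cpox rose by 1.28. Without LN array 1 instead, 9 of 12 (median -3.34), 9 of 12 (median -1.52) and 9 of 15 (median -1.63) fell. Without LN array 2 the counts were 6, 4 and 5, without WBM array 1 they were 2, 1 and 0, and without WBM array 2 they were 3, 1 and 0. In the fit of the 6 NHD13 arrays alone and in that with the replicate block, all 3 counts were 0. LN array 1 also held the highest levels of late granule RNA among the LN arrays (mean over the list 7.25, against 5.62 and 6.32), and the part of residual mature cells in these values was not tested. Hbb-bh1, an embryonic beta-like globin, read 9.35 on LN array 1 and 4.86 to 5.61 on the other 5 arrays, and it was not called.

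**Figure D3:**
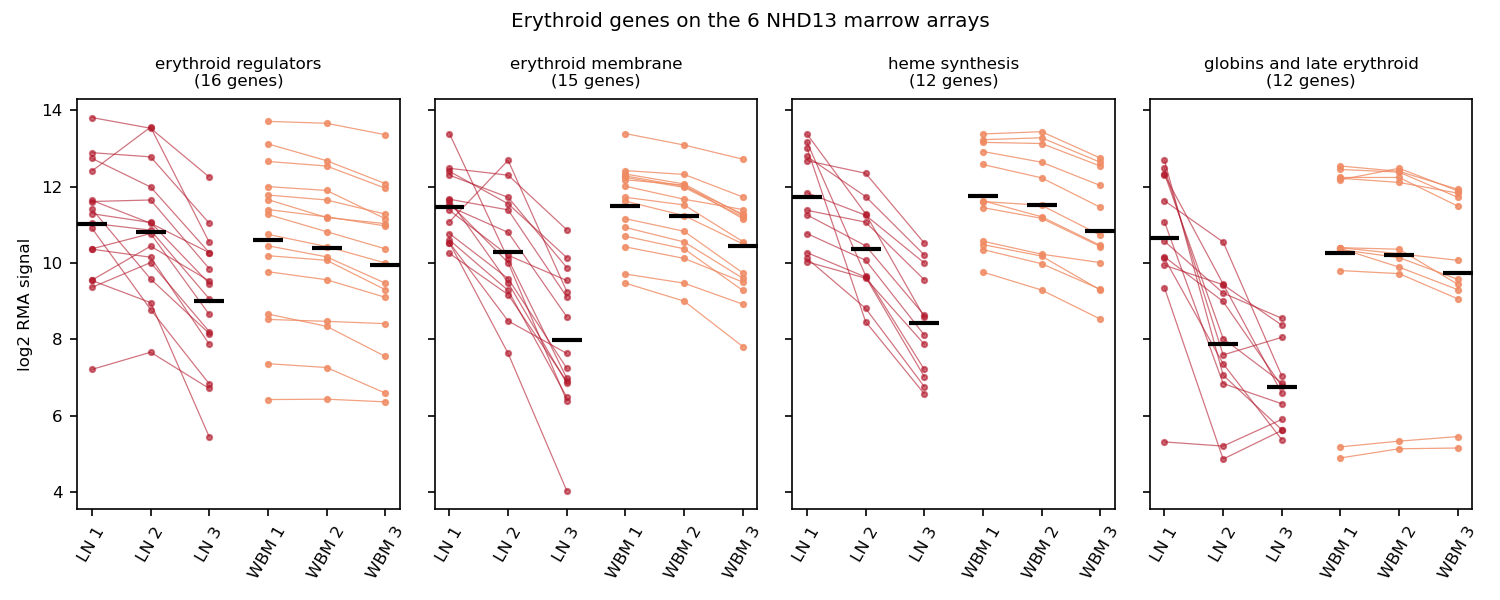
Log2 RMA signal (y axis) of the genes of 4 erythroid lists on the 6 NHD13 marrow arrays (x axis), where thin lines join a gene within a group and black bars are list means. For globins and late erythroid genes the list means are 10.66, 7.88 and 6.76 on LN arrays 1, 2 and 3 and 9.74 to 10.25 on the WBM arrays, while for erythroid regulators LN arrays 1 and 2 reach 11.01 and 10.8.

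Megakaryocyte and platelet genes fell nearly throughout. Of 19 tested, 18 fell, with a median of -1.98 (18 and -2.21 without LN array 3), and Mmrn1 was not called. Thbs1, thrombospondin, read 5.33, 5.37 and 5.51 against 9.69, 10.29 and 10.15. Ppbp, the platelet basic protein, read 7.11, 7.63 and 9.64 against 12.33, 12.72 and 12.7. Itga2b, the CD41 chain that early progenitors also carry, fell by 1.79 and Pf4, platelet factor 4, by 1.49. For Ppbp, Tubb1 and Itgb3 LN array 3 was the highest of the LN arrays and still below each WBM array. For Pf4 (10.16, 10.39 and 12.05 against 12, 12.41 and 12.65) it reached the lowest WBM array. In the fit of the 6 NHD13 arrays alone, 11 of the 19 were called.

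Fewer of the lymphoid genes were called. Of 17 genes of B cell precursors, 8 fell (median -1.61). Dntt, the terminal transferase of lymphoid progenitors, read 6.65, 6.24 and 7.89 against 9.32, 10.45 and 9.6 and fell by 2.87 ± 0.37. Blnk fell by 2.71 and Bst1 by 3.6. Vpreb1 and Rag1 were uneven in WBM, with 4.93, 8.42 and 7.29 for Vpreb1 (which fell by 1.87) and 3.97, 7.58 and 5.21 for Rag1 (not called). Of 18 mature B cell genes, 3 fell (Cd37, Spib and Cd22), a share near the 13.5% of all genes called lower, and the median was -0.25. Ms4a1, the CD20 gene, read 4.96, 4.61 and 6.67 against 4.93, 6.02 and 5.49 and was low in both groups. Of 9 MHC class II genes, 5 fell (median -1.55), led by H2-Aa (-3.32) and including Cd74 (-1.55). Of 16 T cell genes, 4 fell, with Cd3d at 5.79, 5.5 and 7.45 against 9.32, 9 and 9.29, although Cd3e did not follow. Cd247, Klrd1 and Klk1 lost their calls without LN array 3. In the NK list 2 of 14 fell (Nkg7 and Klrd1) and in the dendritic cell list 2 of 13 (Ccr9 and Ly6d), shares near the 13.5% of all genes called lower. In the plasma cell list 3 of 10 fell (Sdc1, Xbp1 and Edem1). Klk1, in the dendritic cell list, was called higher by the probe set used (0.82), but its other 3 probe sets gave -2.68, -3.09 and -0.33 and the mean of all 4 reversed the direction (-1.32), so no direction is given for it. The counts of falls were 5 of 18 for mature B cells and 5 of 13 for dendritic cells without LN array 3, and 3 of 9 for MHC class II without WBM array 2. Of 13 genes of mast cells, basophils and eosinophils, 4 fell, led by Hdc, histidine decarboxylase (-2.37), and Prg2, an eosinophil granule protein (-2.35), and 2 fell without WBM array 1 or 3.

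Genes of non-blood marrow cells were lower in LN. Of 20 genes of stroma, vessels and bone, 12 fell (median -1.38), and 15 did without LN array 3. Cxcl12, the niche chemokine, read 6.5, 7.52 and 7.77 against 10.05, 10.48 and 9.6. Kitl, the ligand of Kit, fell by 3.48, Adipoq by 3.88 and Igfbp5 by 3.65. Eng, an endothelial gene that early erythroid cells also use, rose instead, from 7.67, 7.92 and 7.77 to 8.64, 9.22 and 8.88, a difference of 1.13 ± 0.27 (adjusted p = 0.00404). In the fit of the 6 NHD13 arrays alone and in that with the replicate block, 9 of the 20 fell. In both of these fits 0 of the 20 were called higher, so Eng lost its call.

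Growth genes were among those that rose. In the list of ribosome biogenesis and MYC targets 7 of 20 rose and none fell (median 0.82), against 5.62% of all genes called higher. Without LN array 3 the count was 14 of 20 (median 1.26). In wild-type marrow 18 of the 20 rose (median 1.66), and the difference from wild type was called for 0 of them. Srm, spermidine synthase, read 10.94, 11.51 and 10.19 against 9.15, 9.47 and 9.49 and rose by 1.51 ± 0.3. Gnl3, nucleostemin, rose by 1.25, Nop2 by 1.43, Rrp12 by 1.63 and Ddx21 by 1.19. Myc itself read 9.37, 9.95 and 8.09 against 8.08, 8.37 and 8.72 and was called only without LN array 3 (1.27). None of the 20 was called in the fit of the 6 NHD13 arrays alone. Counts for DNA replication and mitosis rested on single LN arrays. With all arrays none of 23 replication genes was called (median -0.45). Of 19 mitosis genes 2 fell (Cenpf and Nusap1, median -0.66), near the 13.5% of all genes called lower. None was called in either list without LN array 3 (medians 0.27 and 0.1). Without LN array 1, 4 replication and 10 mitosis genes fell (medians -0.77 and -1.05), and without LN array 2 the counts were 5 and 7. Mki67 read 12.81, 12.18 and 10.89 against 12.95, 12.73 and 12.36.

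The 15 largest rises were of mixed kinds. Bms1, a GTPase of ribosome assembly, read 10.58, 11.47 and 11.17 against 8.87, 8.56 and 9.06 and rose by 2.24 ± 0.27. Ccdc86, a nucleolar protein, read 8.28, 9.52 and 7.37 against 5.46, 5.42 and 6.24 and rose by 2.68 ± 0.42, and its other 2 probe sets gave 1.3 and 1.6. Both Bms1 and Ccdc86 also rose in wild-type marrow (2.49 and 3.49). Atp1b2, a subunit of the sodium pump, read 10.89, 10.73 and 9.08 against 8.52, 8.06 and 7.6. Vps13c read 6.89, 6.76 and 6.4 against 4.14, 4.13 and 4.47, but its other probe set gave 0.18 against 2.43. Zmat3 read 8.74, 8.31 and 7.56 against 5.93, 6.33 and 6.69. Nefh (2.18), Hpn (2.17) and Mst1r, the receptor of macrophage-stimulating protein (2.17), were others of this set. Tsks, the top rise, read 7.48, 8.6 and 11.28 against 5.28, 5.46 and 5.88. Like Tsks (3.58, and 2.5 without it), Tex24, Shmt1 and Kcnd2 took much of their size from LN array 3, and Kcnd2 and Csdc2 were not called without that array (0.9 and 1.82). Hspa1a, a heat shock gene, read 10.39, 6.1 and 5.8 against 5.01 to 5.15 and was not called without LN array 1 (0.85). Dctn6 read 7.2, 11.22 and 8.39 against 6.16, 5.6 and 7.19, and its other probe set gave -0.19. The other 3 probe sets of Shmt1 gave -0.52 to 0.27 against 2.09, and those of Kcnd2 gave -0.13 to 0.68 against 1.89.

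The HOXA genes that the fusion is known to hold on were not called between the groups with all arrays. Hoxa9 read 9.73, 10.42 and 5.43 against 9.68, 10.03 and 8.87, so that LN arrays 1 and 2 lay within or just above the WBM range and LN array 3 far below it. It was not called with that array (-1 ± 0.75) or without it (0.55), and was called lower without LN array 2. Its other probe set gave 0.12. In wild-type marrow the Hoxa9 probe set used gave 2.13 and the other 0.42, and 1 of the 8 HOXA genes tested was called higher. The difference from wild type was called for 0 of the 8. Hoxa7 lay between 7.48 and 8.63, Hoxa5 between 7.14 and 8.42 and Hoxa10 between 4.08 and 6.67 on all arrays, and none was called, while the probe sets of Hoxa5 disagreed (0.64 for the one used and -0.86 for the other). Hoxa4 rose by 1.27 without LN array 3 only, from a value of 6.42 on LN array 2. Of 8 HOXA genes none was called with all arrays. In the HOXB cluster Hoxb9 (0.82) and in the HOXC cluster Hoxc9 (0.82) were called higher with all arrays, and neither without LN array 3, WBM array 1 or WBM array 2. Hoxc6 read 6.68, 6.59 and 6.8 against 6.38, 7.13 and 8.34, and Hoxc8 read 4.04, 4.78 and 6.19 against 4.22, 4.93 and 6.04. For Hoxc8 the ranges of the 2 groups nearly coincided. Among cofactors Pbx2 (-1.2) and Pbx3 (-1.21) fell with all arrays and neither was called without LN array 3 (-0.73 and -1.27), while Meis1 lay between 5.87 and 6.9. Hoxd13 read 5.44 to 5.56 in LN and 4.91 to 5.04 in WBM, and Nup98 8.1 to 9.17 and 8.57 to 8.85. Neither was called, though the groups did not overlap for Hoxd13. The labels do not say which part of either gene the probes cover in the transgene, so these values are no check of the fusion.

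In the interferon list 3 of 17 genes fell, against 13.5% of all genes. The count was 9 without WBM array 3, 8 with sex as a covariate and 0 in the fit of the 6 NHD13 arrays alone. Rsad2 read 12.91, 7.68 and 8.28 against 13.32, 13.07 and 11.73, and Oasl2 fell by 2.66. All 17 genes were highest on WBM array 1 among the 6 arrays, as was Irf7 with 9.33, 7.54 and 6.87 on the WBM arrays. In the immediate early list Klf6 (-3.7), Btg2 (-3.11) and Zfp36 (-1.96) fell of 14 tested, 6 fell without LN array 1, and Egr1 and Fosb rose only without LN array 3 (1 and 1.03).

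**Figure D4:**
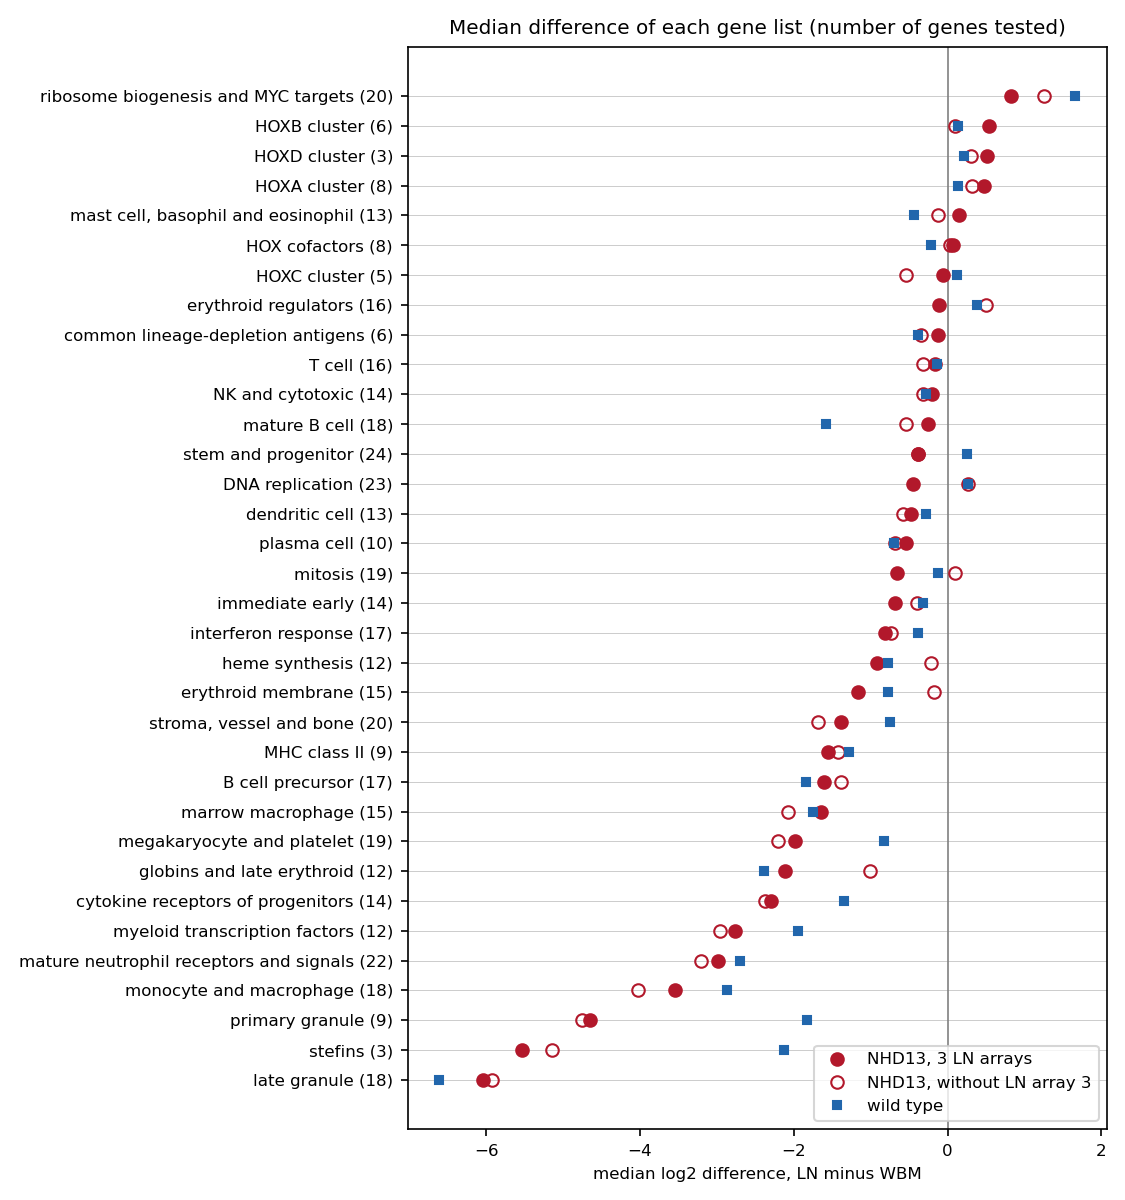
Median log2 difference, LN minus WBM (x axis), of each gene list (y axis, number of genes tested in brackets) in NHD13 marrow with 3 LN arrays, in NHD13 marrow without LN array 3, and in wild-type marrow. The late granule list is at -6.04, -5.92 and -6.61, while the primary granule list is at -4.65 and -4.76 in NHD13 and -1.83 in wild-type marrow.

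The same comparison in wild-type marrow called 3939 genes (25.7%), 2084 higher (13.6%) and 1855 lower (12.1%). Late granule genes fell there too (18 of 18, median -6.61). Primary granule genes fell by less (8 of 9, median -1.83), of the stem and progenitor genes 6 rose and 2 fell (median 0.25), 16 of 18 mature B cell genes fell (median -1.58), and 10 of 19 megakaryocyte genes fell (median -0.83). Whether single genes differed was tested as the NHD13 difference minus the wild-type difference. This was called for 43 genes (0.281%), 7 positive (0.0457%) and 36 negative (0.235%), with a median over all genes of -0.11. Without LN array 3 of each genotype it was called for 53 genes (0.346%), 31 of them among the 43. A fit within the wide set of arrays, added once the values had been seen, gave 29 calls, and 15 of these belonged to the 43.

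Negative differences were called for 3 of 9 primary granule genes (Ctsg, Mpo and Prtn3) and for 1 of 24 stem and progenitor genes (Cd34). Cd34 rose by 1.2 in wild-type marrow, from a mean of 7.27 ± 0.61 (SD, n = 6) to 8.48 ± 0.59 (SD, n = 3), and fell in NHD13 marrow. Wild-type WBM arrays 1 to 3, which were male, read 7.75, 8.12 and 7.55 for Cd34. Arrays 4 to 6, female and of the narrow set, read 6.77, 6.71 and 6.76. For Cd34 the difference between the genotypes was -3.87 ± 0.6 (SE, adjusted p = 0.00208). NHD13 LN values near the background limit how well its size is known. Ctsg fell by 1.7 in wild-type and by 5.43 in NHD13 marrow (difference -3.73 ± 0.49, adjusted p = 0.000591). Mpo fell by 1.29 in wild-type and by 4.65 in NHD13 marrow (difference -3.35 ± 0.46, adjusted p = 0.000791). Wild-type LN arrays read 12.34, 11.31 and 11.77 for Mpo, above every NHD13 LN array, whereas the WBM arrays of the genotypes overlapped. Prtn3 differed by -3.03, while for Elane, which fell in both genotypes, the difference was not called (-1.54). Dntt (0.16 in wild-type, difference -3.03), Ramp1 (0.42, difference -3.15), Gpr171 (0.37, difference -2.82) and Emb (-1.71, difference -2.86) were the others named on this side. Irf8 (-2.78), Il6st (-2.47), Gp5, a platelet glycoprotein (-2.22), Cd27 (-2.68), Itga6 (-2.43), Plac8 (-2.39), Vim (-1.89) and Dach2 (-1.86) were also among the 36.

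The genes named on the positive side had lower means in NHD13 than in wild-type whole marrow, a difference that was not tested. Ear3, an eosinophil-associated ribonuclease, read 3.64, 3.73 and 3.97 in NHD13 LN and 6.61, 6.14 and 5.32 in NHD13 WBM, while wild-type WBM arrays read 11.03 to 12.71. It fell by 2.24 in NHD13 and by 6.21 in wild-type marrow (difference 3.97 ± 0.52, adjusted p = 0.000591). Ms4a1 averaged 5.48 ± 0.54 (SD, n = 3) in NHD13 WBM and 8.34 ± 0.53 (SD, n = 6) in wild-type WBM, and its difference was 3.29. Without LN array 3 of each genotype the call was lost for Ms4a1 (2.7, adjusted p = 0.0772), which read 6.67 on NHD13 LN array 3, and for Cecr2 (1.74, adjusted p = 0.0758). Fcmr, the IgM receptor (2.15), Cd72, another B cell surface gene (1.66), Cecr2 (1.76) and Rnase2a (1.6) made up the rest of those named, and none of them was called between LN and WBM in NHD13 marrow. Within the wide set of arrays 8 of the 14 named genes lost the call, among them Cd34 (-3.4, adjusted p = 0.0755) and Prtn3 (-2.92, adjusted p = 0.0573), while their direction was kept. The calls of Ctsg, Mpo, Dntt, Gpr171, Ear3 and Fcmr held there. In the fit of all arrays of the series 13 of the 14 lost the call, and under the replicate block all 14 did. With only the groups compared 6 lost it. Without NHD13 WBM array 3 the number was 5, as it was without WT LN array 1. All 14 kept the call with the array set or with sex as a covariate.

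**Figure D5:**
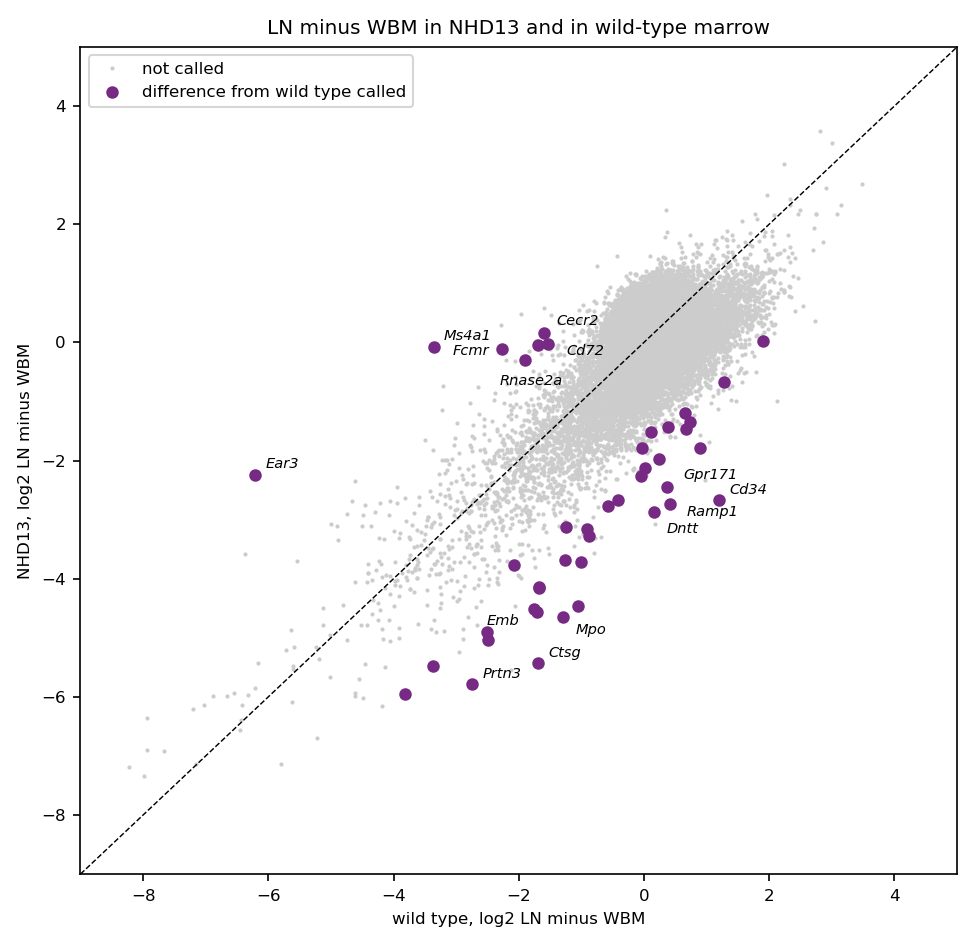
Log2 LN minus WBM in NHD13 marrow (y axis) against the same in wild-type marrow (x axis) for the 15310 genes tested; the dashed line marks equal differences, filled circles the 43 genes whose difference was called, and labels the 14 genes named. Ctsg, Mpo and Prtn3 lie below the line, and Ear3 and Ms4a1 lie above it.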

How the data were processed

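Biotin-labelled RNA (100 ng per array, extracted with Trizol per the labels' protocols) was measured on Affymetrix mouse arrays. The deposited values are log2 signals the authors made by RMA. The submitters' processing notes name this method without a version. Of 44943 probe sets, 34842 had 1 gene symbol, 931 several and 9106 none (64 more are control probe sets). For each of 18165 genes the brightest probe set (by its average on the 57 arrays) was kept, and 15310 genes above the 40th percentile of the array on at least 3 arrays were tested. Older probe designs can merge paralogs, so stefins, globins and Ear genes are uncertain. The number of arrays limits the precision.

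limma 3.58.1 (R 4.3.3) fitted 7 group means to the 24 marrow arrays, CA10 arrays included, which share 1 estimate of the spread (median 22.8 degrees of freedom). Adjusted p-values are Benjamini-Hochberg over all genes tested. The script was tested on simulated data. The members and the 36 gene lists were chosen with earlier results of these data known; no set test was run and list counts are descriptions. Named genes were the 15 largest rises and falls among called genes without overlap (predicted genes and immunoglobulin or T cell receptor segments left out), up to 4 of each list by adjusted p with defining members, HOX members, and the 8 largest differences from wild type each way; further list members named beside these were chosen after their values were seen. Promoters came from RefSeq (GRCm38.p6). Alternatives varied the filter, probe set rule, normalization, arrays fitted, covariates and left-out arrays.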

Additional observations from a re-analysis of the deposited data

Results flagged for a closer look

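The difference between LN and WBM marrow was itself unequal in NHD13 and wild-type mice for 43 genes by limma's contrast of the differences. Among those named, the NHD13 value exceeded the wild-type value for Ear3 (3.97), Ms4a1 (3.29), Fcmr (2.15), Cecr2 (1.76), Cd72 (1.66) and Rnase2a (1.6). It was below it for Cd34 (-3.87), Ctsg (-3.73), Mpo (-3.35), Ramp1 (-3.15), Dntt (-3.03), Prtn3 (-3.03), Emb (-2.86) and Gpr171 (-2.82). For Ramp1 the other 2 probe sets showed little in NHD13 marrow (-0.21 and 0.13, against -2.73).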

How the results depend on the processing

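The LN against WBM comparison called 2928 genes, and 4624 with quantile normalization, 937 with only the groups compared, 4401 with the array set as a covariate, 5121 with sex as a covariate, and 4991 within the wide array set, an alternative chosen after seeing the data. Leaving out 1 array gave 1866 (without WBM array 2) to 4324 (without LN array 2). Without LN array 3 the array set covariate gave 4677 against 3013. Lists whose median lay above that of all genes numbered 8, 7 without LN array 3 and 8 with quantile normalization. The difference from wild type, 43 genes, was 17 with only the groups compared, 8 with all arrays, 138 with sex as a covariate, 26 with WT WBM arrays 1 to 3 and 510 against the C57B6 arrays, where Rnase2a turned to -0.35. Leaving out 1 array gave 17 (without WT LN array 1) to 377 (without NHD13 LN array 2), with 28 without NHD13 WBM array 2, 24 without NHD13 WBM array 3, and 28 and 27 without WT WBM arrays 4 and 6. Klk1 turned to -1.32 with the mean of its probe sets. The causes were not tested. The C57B6 alternative changed the reference animals and not only the processing. On those arrays Mndal read 8.33 to 8.88 and Ms4a4b 9.28 to 10.01. The other marrow arrays read 3.17 to 3.71 and 3.34 to 4.32. The labels do not say whether replicate numbers pair the arrays, and the values do not settle it for numbers 1 and 2. Deviations of the same-numbered LN and WBM arrays correlated at 0.25, 0.06 and 0.19. Each LN array correlated best with its own number, whereas WBM array 2 correlated better with LN array 1 (0.12). LN array 3 read as male and WBM array 3 as female, so number 3 did not mark the same mouse. With the replicate block 800 genes were called between LN and WBM (779 lower, 21 higher), and 0 for the difference from wild type, where 451 had an unadjusted p under 0.05 in limma. Of 128 named or list genes called between LN and WBM, 52 lost the call under the block and 21 without LN array 3, and none of these turned direction. The spread of the 3 LN arrays limits the precision.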
